A study of Mus musculus with 17 samples.

Results

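RNA from CD8 T cells primed by liver sinusoidal endothelial cells (LSEC), which the study calls partial memory T cells or Tpm, was compared with RNA from CD8 effector T cells activated by dendritic cells (DC), called Teff. The comparison used the 4 samples whose titles name LSEC-primed cells and the 5 whose titles name DC-activated Teff, 9 of the 17 samples of the series, with 1 array of 45281 probes each. Both groups started from OT-I cells, which carry a transgenic T-cell receptor for an ovalbumin peptide, on a C57Bl/6 background from mice aged 2 to 6 months. Tpm were recovered from a coculture with LSEC and Teff from a coculture with splenic DC. For Teff 8 the source label names the spleen alone, and it was kept in its group as its title states. The series also held 5 arrays of naive OT-I cells from spleen, used below as the starting level, and 3 of memory OT-I cells taken after a Listeria infection, which entered the fit but are not described. No label gives the antigen dose, the length of coculture or the purity after sorting. No label states that arrays of 1 group stem from different mice, so p-values measure the spread between these samples, which may be technical.

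Dendritic cells are the professional activators of CD8 T cells. They present antigen together with co-stimulatory ligands, and the T cell answers by expressing the high-affinity interleukin-2 receptor, dividing, switching to glycolysis and lipid synthesis, and arming itself with perforin and interferon-gamma. LSEC line the liver's capillaries, take up antigen from blood and present it to CD8 T cells, and this contact is known as a route to liver tolerance as well as to a long-lived state that can be called back into function. The question was which genes separate the outcomes of these 2 encounters.

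Arrays are named by group and sample number, and values are given in the order Tpm 4, 7, 14 and 15 and Teff 6, 8, 10, 16 and 17. Levels are log2 of background-corrected, quantile-normalized probe intensity and are not comparable between genes. On the 9 arrays the mean signal ran from 227 to 471, and 33.6% to 38.7% of probes lay above background. Correlation with the mean of the rest of the group was 0.982 to 0.99 for Teff, 0.983 for Tpm 4, 0.976 for Tpm 15, 0.956 for Tpm 7 and 0.958 for Tpm 14. Tpm 14 and Teff 17 had the male pattern of Xist and Y-linked genes and the other 7 the female one. T-cell markers were high on all 9 arrays: Cd3e, a T-cell receptor complex subunit, lay between 12.46 and 13.47, and Cd8b1, the CD8 beta chain, between 12.99 and 14.16. Tpm 14 stood apart by macrophage and dendritic cell genes, described with the marker lists, and results that rest on it are given with and without it.

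Of 10619 genes tested, 788 were higher in Tpm than in Teff, which is 7.42%, and 818 were lower, which is 7.7%. A call needed a Benjamini-Hochberg adjusted p under 0.05 in limma together with a 2-fold difference (log2 difference of 1), and these are the shares against which every count below is read. The values of the groups did not overlap for 2910 genes (27.4%). Over all genes the median difference, Tpm minus Teff, was 0.04 on the log2 scale. At least 4-fold differences were found for 167 of the higher and 232 of the lower genes. These are bulk samples, in which fewer cells of a type and less RNA per cell cannot be told apart.

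**Figure D1:**
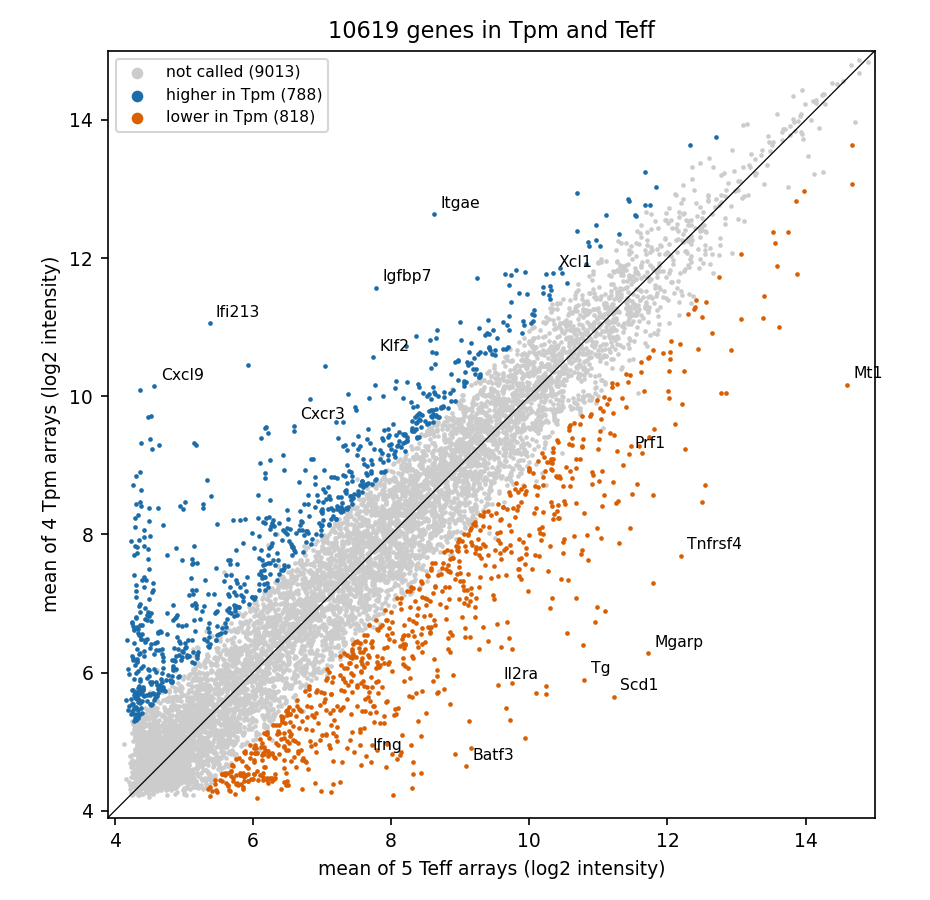
Mean level of each of 10619 genes in 5 Teff arrays (x axis) and 4 Tpm arrays (y axis), both in log2 intensity, with 788 genes higher in Tpm in blue and 818 lower in orange. Points on the line have equal means. Scd1, Mgarp, Tnfrsf4 and Batf3 lie far below the line and Ifi213, Cxcl9, Itgae and Klf2 far above it.

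RNA of a receptor chain for interleukin-2 (IL-2) was lower in Tpm. Il2ra, the chain that gives the receptor its high affinity, measured 5.61, 6.05, 5.78 and 5.84 on the Tpm arrays and 9.84, 9.36, 9.43, 9.65 and 9.42 on the Teff arrays. The ranges lay far apart, and Il2ra was 13.2-fold lower in Tpm (log2 difference -3.72, SE 0.19, adjusted p = 5.07e-10). Naive cells had 4.63 ± 0.41 (SD, n = 5), so Tpm stood slightly above the naive level and Teff well above both. Cish, a feedback inhibitor that STAT5 induces downstream of IL-2, measured 5.95, 6.92, 8.35 and 6.51 in Tpm and 10.31, 9.96, 9.94, 10.29 and 11.01 in Teff and was 10.3-fold lower in Tpm (log2 difference -3.37, SE 0.45, adjusted p = 2.05e-05). Tpm 14 had the highest of the Tpm values, still under every Teff value. Socs2, a related feedback inhibitor, was 4.04-fold lower in Tpm (log2 difference -2.02, SE 0.35, adjusted p = 0.000244). Of 20 measured STAT and SOCS genes 0 were higher and 3 lower, the third being Stat3 (log2 difference -1.27, adjusted p = 0.00119).

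Among 23 cytokine receptor genes 3 were higher and 5 lower, with a median difference of 0.23. Il12rb2, the inducible chain of the IL-12 receptor, was 6.31-fold lower in Tpm (log2 difference -2.66, SE 0.51, adjusted p = 0.000676), with 5.43, 5.68, 8.17 and 7.39 in Tpm. The 2 highest Tpm arrays for this gene were Tpm 14 and Tpm 15, and all 4 lay under the lowest Teff value of 8.48. Il1r2, a decoy receptor for IL-1, was at least 4.52-fold lower in Tpm (means 4.29 in Tpm and 6.98 in Teff, adjusted p = 1.48e-06). Il6st, the signalling chain shared by the IL-6 family, was 3.89-fold higher in Tpm (log2 difference 1.96, SE 0.33, adjusted p = 0.000208). The receptor chain for IL-7, Il7r, which sustains resting T cells, measured 10.64, 11.29, 10.75 and 11.07 in Tpm and 11.74, 11.48, 11.43, 11.66 and 12.05 in Teff; its difference of -0.74 passed the p threshold (adjusted p = 0.0407) and not the 2-fold minimum.

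Of 13 co-stimulatory receptors 5 were lower and 3 higher, with a median difference of -0.81, and the higher count was 1 with no background correction. Tnfrsf4, which encodes OX40, a survival receptor of activated T cells, measured 7.54, 7.30, 8.58 and 7.37 in Tpm and 12.12, 11.78, 12.10, 12.17 and 12.82 in Teff. It was 22.7-fold lower in Tpm (log2 difference -4.50, SE 0.32, adjusted p = 1.79e-08), with no overlap, and the naive mean was 6.95 ± 0.24 (SD, n = 5). Tnfrsf18, which encodes GITR, was 6.95-fold lower in Tpm (log2 difference -2.80, SE 0.42, adjusted p = 5.82e-05). Tnfrsf9, which encodes 4-1BB, was 4.73-fold lower in Tpm (log2 difference -2.24, SE 0.44, adjusted p = 0.000713), although its Tpm values of 8.11, 7.80, 6.88 and 8.05 all lay above the naive mean of 4.80 ± 0.31 (SD, n = 5). Slamf7, a SLAM-family receptor of activated lymphocytes, was also lower (log2 difference -2.55, adjusted p = 4.43e-07). In the opposite direction Slamf6, a SLAM-family receptor kept by memory-precursor and stem-like CD8 cells, measured 9.99, 9.88, 8.49 and 9.22 in Tpm and 6.99, 6.60, 6.04, 5.81 and 5.18 in Teff and was 9.66-fold higher in Tpm (log2 difference 3.27, SE 0.59, adjusted p = 0.000369).

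Of 17 genes of the co-inhibitory receptor list 4 were higher and 1 lower, with a median difference of 0.21. Besides receptors the list holds the ligand gene Cd274 and the enzyme gene Nt5e. Cd274, which encodes PD-L1, was 2.7-fold higher in Tpm (log2 difference 1.43, SE 0.23, adjusted p = 0.000145). Cd160 (log2 difference 1.15, adjusted p = 0.000343) and Nt5e, the CD73 enzyme that makes adenosine from AMP (log2 difference 1.34, adjusted p = 0.000168), were higher as well. Havcr2, which encodes TIM-3, was the lower one (log2 difference -1.43, adjusted p = 0.000312) and was above background on 1 Tpm array. Lag3, an inhibitory receptor for MHC class II, measured 10.05, 9.75, 10.60 and 11.28 in Tpm and 11.21, 11.25, 10.79, 11.65 and 11.82 in Teff with a difference of -0.93 (adjusted p = 0.373). The Lag3 ranges overlapped, while the naive mean was 4.61 ± 0.47 (SD, n = 5). The SE of Lag3, 0.71, pools the spread of all groups, with SD 0.67 in Tpm, 0.40 in Teff and 2.81 in memory. Pdcd1, which encodes PD-1, was near the floor in both groups, above background on 1 Tpm and 3 Teff arrays. The count of 1 lower gene became 2 without Tpm 4 or without Teff 10.

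Most killing genes were not called. Of 16 measured, 2 were higher (12.5%, against 7.42% of all genes) and 4 lower (25%, against 7.7%), with a median difference of 0.30. The largest falls were those of Fasl and Prf1. Perforin, Prf1, which opens the pore in the target cell, measured 10.01, 9.74, 8.22 and 8.70 in Tpm and 11.87, 11.38, 11.55, 10.85 and 11.54 in Teff and was 4.83-fold lower in Tpm (log2 difference -2.27, SE 0.40, adjusted p = 0.000306). Tpm 14 and Tpm 15 were lowest for Prf1, and the naive mean was 10.00 ± 0.63 (SD, n = 5). Fasl, the death ligand, was 6.55-fold lower in Tpm (log2 difference -2.71, SE 0.29, adjusted p = 2.09e-06), and Serpinb6b, a protease inhibitor of the serpin family, was 3.51-fold lower in Tpm (log2 difference -1.81, SE 0.38, adjusted p = 0.00149). Ifng, the main CD8 effector cytokine, measured 4.97, 5.63, 4.20 and 4.40 in Tpm and 7.80, 7.89, 7.77, 7.47 and 7.30 in Teff. It was above background on 2 of the 4 Tpm arrays and on all Teff arrays and was 7.19-fold lower in Tpm (log2 difference -2.85, SE 0.32, adjusted p = 2.93e-06). Lta, which encodes lymphotoxin, was 2.89-fold lower in Tpm (log2 difference -1.53, SE 0.31, adjusted p = 0.00106). Of 15 effector cytokine genes 1 was higher and 6 lower. The 2 higher killing genes were 1 without Tpm 15, Teff 10 or Teff 17 and 0 without Tpm 14, and the single higher cytokine, Csf1, was not called without Tpm 7 (at least 1.57-fold). The lower cytokine count was 3 with an offset of 50 and 1 with no background correction, and the higher count was 0 under both.

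Chemokine genes showed the reverse. Of 12 measured, 10 were higher, 0 were lower and the median difference was 2.11. Xcl1, the chemokine with which activated CD8 cells attract cross-presenting dendritic cells, measured 11.87, 11.64, 11.96 and 11.65 in Tpm and 9.88, 10.47, 10.45, 10.28 and 10.62 in Teff and was 2.71-fold higher in Tpm (log2 difference 1.44, SE 0.40, adjusted p = 0.0101). The highest Teff value lay under the lowest Tpm value, and both groups stood far above the naive mean of 5.98 ± 0.75 (SD, n = 5). Cxcl9, a ligand of CXCR3 that interferon-gamma induces in many cell types, measured 9.70, 10.41, 9.90 and 10.59 in Tpm, was above background on 2 Teff arrays and was 47.7-fold higher in Tpm (log2 difference 5.58, SE 0.53, adjusted p = 4.98e-07). The other largest were myeloid-attracting chemokines that stromal and endothelial cells also make: Ccl7 was at least 8.38-fold higher in Tpm (means 7.83 in Tpm and 4.29 in Teff, adjusted p = 2.15e-06), and Cxcl1 was at least 6.00-fold higher in Tpm (means 7.35 in Tpm and 4.39 in Teff, adjusted p = 3.99e-06). The endothelial and stromal markers that were higher on the same arrays are given below, and their part in these chemokine values was not tested.

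**Figure D2:**
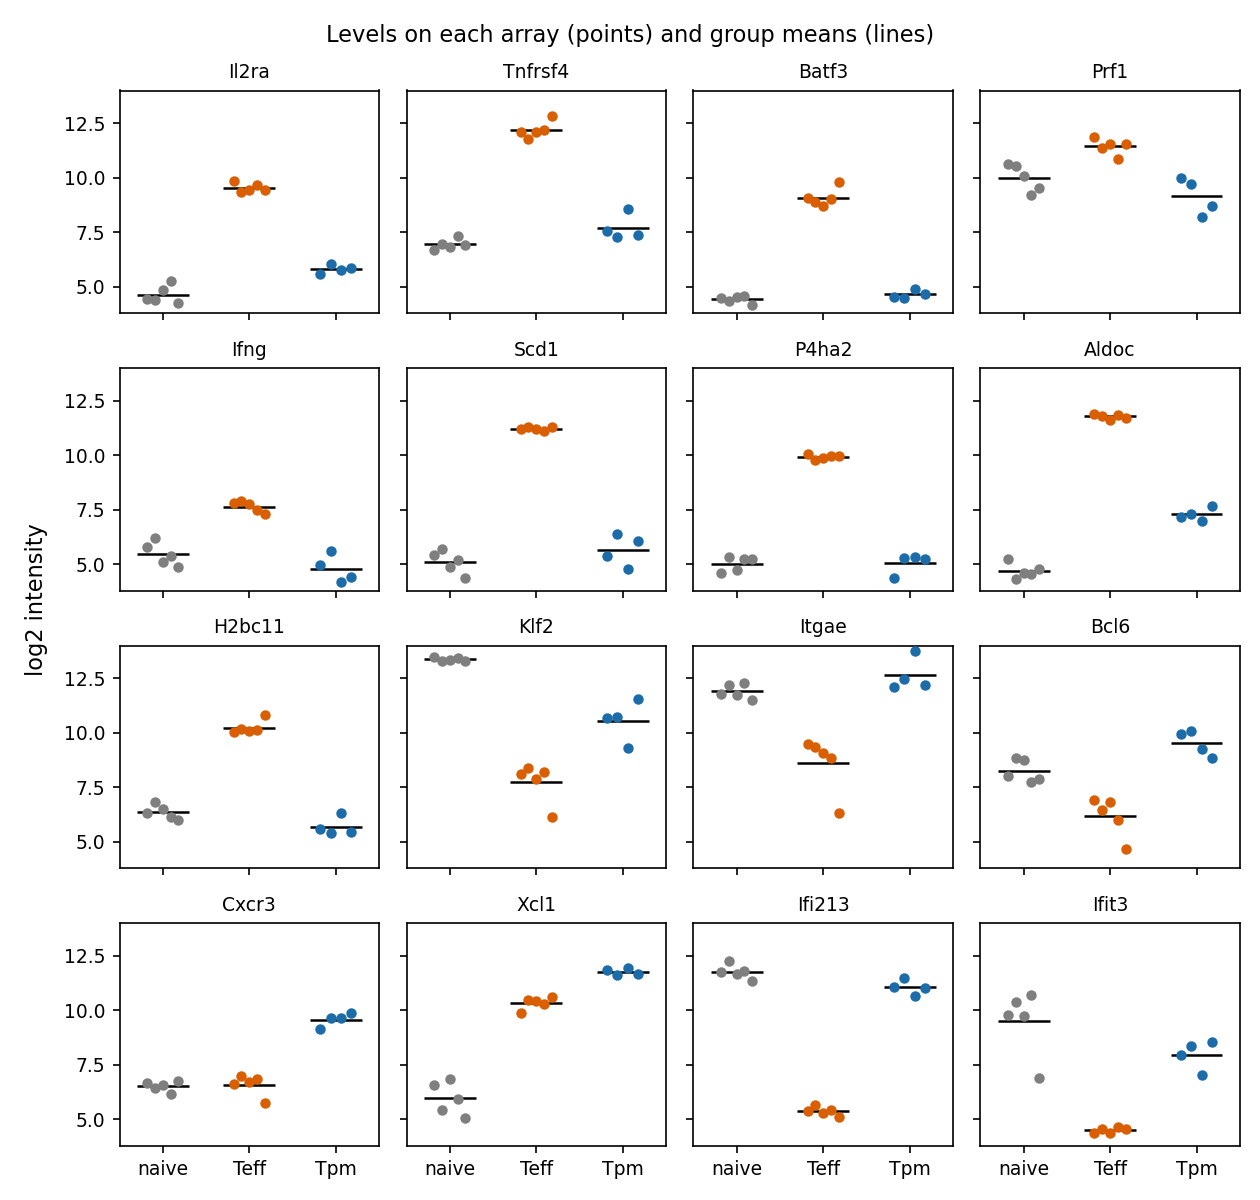
Levels of 16 genes (log2 intensity, y axis) on each array of naive cells (grey, n = 5), Teff (orange, n = 5) and Tpm (blue, n = 4), with lines at the group means. All 16 are called genes chosen for display, and their Tpm and Teff values do not overlap. The same held for 1463 of all 1606 called genes and for 27.4% of all genes tested. For Klf2, Itgae, Bcl6 and Cxcr3 the lowest Teff point is Teff 17.

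Homing receptors changed in both directions. Cxcr3, which steers activated T cells toward CXCL9 and CXCL10, measured 9.15, 9.64, 9.65 and 9.87 in Tpm and 6.64, 6.99, 6.74, 6.85 and 5.75 in Teff and was 7.91-fold higher in Tpm (log2 difference 2.98, SE 0.27, adjusted p = 2.26e-07). Teff cells stayed near the naive mean of 6.53 ± 0.23 (SD, n = 5). Cxcr5, a receptor for follicle-directed migration, was 3.33-fold higher in Tpm (log2 difference 1.74, SE 0.27, adjusted p = 0.000101), and Cxcr4, the receptor for CXCL12, was 4.95-fold lower in Tpm (log2 difference -2.31, SE 0.28, adjusted p = 7.23e-06). Ccr7, the lymph node entry receptor, differed by -0.41 (adjusted p = 0.504) and Cxcr6, a receptor of liver-resident T cells, by -0.76 (adjusted p = 0.332), both with overlapping ranges. Of 10 chemokine receptors and trafficking genes 2 were higher and 2 lower, the other lower one being Ccr6, which lost its call without Teff 17 (log2 difference -0.98).

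Adhesion genes were led by Itgae, which encodes CD103, the integrin that holds CD8 cells on E-cadherin. It measured 12.10, 12.49, 13.76 and 12.21 in Tpm and 9.48, 9.34, 9.08, 8.86 and 6.33 in Teff and was 16.2-fold higher in Tpm (log2 difference 4.02, SE 0.58, adjusted p = 4.55e-05). Teff 17 was the lowest array and Tpm 14 the highest, and the gap remained between the other arrays, with 4 of the 5 other Itgae probes also called higher. The naive mean was 11.90 ± 0.33 (SD, n = 5), near Tpm. Icam2, a ligand of LFA-1 found on resting lymphocytes and endothelium, was 7.16-fold higher in Tpm (log2 difference 2.84, SE 0.23, adjusted p = 7.02e-08). Of 18 integrin and adhesion genes 4 were higher and 0 lower, and with no background correction 2 were higher. Cd44, an activation marker, measured 8.10, 7.68, 8.79 and 7.81 in Tpm and 9.63, 9.44, 8.78, 8.59 and 8.90 in Teff, a difference of -0.97 that fell short of 2-fold and was called lower without Tpm 14, Teff 10, Teff 16 or Teff 17. Cd69, which retains T cells in tissue, was high in both groups and differed by 0.12 (adjusted p = 0.751).

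Genes of the resting state were below the naive level in both groups. Of 19 measured naive and quiescence genes 12 were lower in Tpm than in naive cells and 14 lower in Teff, with 0 higher in either, while between Tpm and Teff 5 were higher in Tpm and 1 lower, with a median difference of 0.41. Klf2, a transcription factor of quiescence that drives lymphocyte recirculation, measured 10.69, 10.74, 9.29 and 11.54 in Tpm and 8.12, 8.41, 7.87, 8.19 and 6.13 in Teff and was 7.06-fold higher in Tpm (log2 difference 2.82, SE 0.41, adjusted p = 5.16e-05). Tpm 14 was the lowest Tpm array and Teff 17 the lowest Teff array. The naive mean of 13.38 ± 0.09 (SD, n = 5) lay above both groups. Nsg2 (log2 difference 1.66, adjusted p = 0.00816) and Slfn2, a quiescence factor (log2 difference 1.41, adjusted p = 0.00118), were also higher. The lower gene, Tsc22d3, lost its call without Tpm 4 (log2 difference -0.91). The higher gene Actn1 lost its call in each setting that left out a Tpm, Teff or naive array other than naive 2. Adjusted p was then 0.0514 to 0.105. Its SE of 0.66 pools the spread of all groups, with SD 0.34 in Tpm, 0.22 in Teff and 2.78 in memory. Ly6c1, a surface antigen of naive and memory CD8 cells, was 6.21-fold higher in Tpm (log2 difference 2.63, SE 0.26, adjusted p = 8.52e-07) as 1 of 4 measured Ly6 genes, and Gimap6 (log2 difference 1.71, adjusted p = 7.93e-07) and Gimap8 (log2 difference 1.18, adjusted p = 0.00163) were higher as 2 of 7 measured Gimap GTPase genes.

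Transcription factors of T-cell fate split into 4 higher and 5 lower of 21 measured, with a median difference of 0.00, and with no background correction 2 were higher. The higher ones are known from memory and precursor cells. Bcl6, the repressor that opposes terminal effector differentiation, measured 9.96, 10.10, 9.27 and 8.83 in Tpm and 6.91, 6.46, 6.84, 6.01 and 4.65 in Teff and was 10.3-fold higher in Tpm (log2 difference 3.37, SE 0.40, adjusted p = 5.83e-06). Myb, a factor of stem-like memory cells, was 5.45-fold higher in Tpm (log2 difference 2.45, SE 0.33, adjusted p = 2.19e-05). Eomes, the T-box factor of memory cells, measured 6.57, 6.42, 5.26 and 5.95 in Tpm, was above background on 1 Teff array and was 2.96-fold higher in Tpm (log2 difference 1.57, SE 0.36, adjusted p = 0.00282), while its relative Tbx21, which encodes T-bet, differed by 0.32 (adjusted p = 0.341).

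The lower fate factors included those that sustain effector metabolism and expansion. Batf3, an AP-1 family factor, measured 4.55, 4.48, 4.90 and 4.68 in Tpm and 9.06, 8.87, 8.69, 9.03 and 9.80 in Teff and was 21.7-fold lower in Tpm (log2 difference -4.44, SE 0.19, adjusted p = 6.58e-11). Bhlhe40, a factor of cytokine production, was 16.3-fold lower in Tpm (log2 difference -4.03, SE 0.50, adjusted p = 9.04e-06), and Irf4, which scales with T-cell receptor signal strength, was 3.4-fold lower in Tpm (log2 difference -1.77, SE 0.33, adjusted p = 0.000545). Myc, the driver of growth metabolism, was 2.37-fold lower in Tpm (log2 difference -1.24, SE 0.27, adjusted p = 0.00174). Its difference was -0.99 without Tpm 7, which ended the call. Batf, the partner of Irf4, differed by -0.50 (adjusted p = 0.463), and Hif1a, whose product is regulated mainly as a protein, by -1.15 (adjusted p = 0.128), with overlapping ranges for both.

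Genes that respond to T-cell receptor signalling also divided. Egr2 and Egr3, calcium-induced factors linked to restraint of T-cell activation, were both higher. Egr3 measured 11.10, 11.03, 10.37 and 10.73 in Tpm and 8.97, 8.84, 8.78, 8.63 and 7.58 in Teff and was 4.75-fold higher in Tpm (log2 difference 2.25, SE 0.36, adjusted p = 0.000115), and Egr2 was 3.66-fold higher in Tpm (log2 difference 1.87, SE 0.46, adjusted p = 0.00464). Teff 17 was the lowest array for both genes, and neither lost its call without it. Of 16 Egr, Nr4a and NFAT genes 4 were higher and 0 lower. Of 15 AP-1 and CREB genes 0 were higher and 4 lower, among them Crem (log2 difference -2.03, adjusted p = 8.26e-05) and Junb (log2 difference -2.06, adjusted p = 0.00413), and the Junb ranges overlapped. Among 14 phosphatase and Spry-type feedback genes 2 were higher, including Dusp6 (log2 difference 1.62, adjusted p = 0.00104), and 4 were lower, including Rgs1 (log2 difference -2.35, adjusted p = 9.28e-07) and Dusp4 (log2 difference -1.54, adjusted p = 0.000156).

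In smaller lists the counts were close to background. Of 17 CD8 and T-cell receptor genes 1 was higher, the co-receptor Cd6 (2.83-fold, adjusted p = 1.77e-06), and 1 lower, the signalling adaptor Themis (log2 difference -1.38, adjusted p = 0.000105). Without Tpm 14, Tpm 15, Teff 6, Teff 8 or Teff 10 the count of higher genes was 2. Of 22 BCL2-family and death genes 2 were higher and 2 lower, the latter being the survival gene Bcl2 (log2 difference -1.59, adjusted p = 0.000457) and the mitotic gene Birc5. The 2 higher became 1 without Tpm 7, Tpm 15, Teff 10 or Teff 17 and 0 with no background correction. Among 11 NK-type lectin receptors Klrc1, which encodes the inhibitory NKG2A, was at least 3.18-fold lower in Tpm (means 4.37 in Tpm and 6.48 in Teff, adjusted p = 3.09e-05), Klri2 was lower as well (log2 difference -1.81, adjusted p = 0.002), and 1 was higher, a count that became 3 without Tpm 14. With no background correction 0 of the lectin receptors were called in either direction.

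Lists that draw on the genes above gave mixed counts. Of 15 residency and TGF-beta genes 3 were higher, with Itgae and Xcl1 leading, and 2 lower. Of 17 memory CD8 genes 5 were higher, with Slamf6, Cxcr3 and Ly6c1 leading, and 3 lower, and the lower count was 5 without Teff 17. The median differences of these lists were 0.41 and 0.23.

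Cell division genes formed the most uniform group. All 22 measured genes were lower in Tpm, with a median difference of -2.03, and in none of them did the groups overlap. Aurkb, a kinase that checks chromosome attachment to the spindle, measured 7.42, 6.14, 9.39 and 8.16 in Tpm and 10.83, 10.72, 10.56, 10.99 and 10.70 in Teff and was 7.9-fold lower in Tpm (log2 difference -2.98, SE 0.48, adjusted p = 0.000123). Top2a, which untangles replicated chromosomes, was 6.93-fold lower in Tpm (log2 difference -2.79, SE 0.54, adjusted p = 0.000657), and its difference was -2.21 without Tpm 7. Both genes, with Aurka and Tpx2, were highest in Tpm 14. The mean over the list, set relative to the average of the 9 arrays, was -0.17 on Tpm 14, between -1.61 and -1.16 on the other Tpm arrays and between 0.72 and 0.97 on Teff. Naive arrays lay between -2.58 and -2.02, below every Tpm array.

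DNA replication followed with 21 of 37 genes lower, 0 higher and a median difference of -1.11. Tk1, the thymidine kinase of S phase, was 5.03-fold lower in Tpm (log2 difference -2.33, SE 0.44, adjusted p = 0.000601), and Lig1, the ligase of lagging strands, was 4.64-fold lower in Tpm (log2 difference -2.21, SE 0.21, adjusted p = 5.13e-07). Mcm10, a replication initiation factor, was 4.57-fold lower in Tpm (log2 difference -2.19, SE 0.28, adjusted p = 1.36e-05). Among 23 genes of the G1 phase, E2F family and cyclin-dependent kinase inhibitors 2 were higher and 5 lower. E2f1, which switches on replication genes, was 3.25-fold lower in Tpm (log2 difference -1.70, SE 0.17, adjusted p = 7.36e-07). Cdkn1a, which encodes the inhibitor p21, was lower as well (log2 difference -2.07, adjusted p = 0.00406), but Tpm 14 at 9.23 lay within the Teff range, and without it the difference was -2.69. Ccnd1, a cyclin that lymphocytes express little, was at least 4.19-fold higher in Tpm (means 6.83 in Tpm and 4.47 in Teff, adjusted p = 1.47e-05).

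Replication-dependent histone genes, transcribed in S phase to package new DNA, were lower for 37 of 46, higher for 0, with a median difference of -2.31. H2bc11 measured 5.58, 5.41, 6.31 and 5.48 in Tpm and 10.03, 10.17, 10.07, 10.13 and 10.82 in Teff and was 23.4-fold lower in Tpm (log2 difference -4.55, SE 0.37, adjusted p = 7.05e-08). H3c1 was lower (log2 difference -4.39, adjusted p = 5.45e-09), and H2bc7 was 21.3-fold lower in Tpm (log2 difference -4.41, SE 0.31, adjusted p = 1.75e-08). The naive mean of H2bc11 was 6.35 ± 0.33 (SD, n = 5), and its Tpm values lay at or below it. Histone genes are near-identical copies of each other, so a probe may read several of them, and for H2bc21 the probe used was lower (log2 difference -4.44, adjusted p = 1.79e-09) while a second probe was called higher, at 1.23.

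Promoters are shown for 1 cell division and 1 histone gene because both groups moved almost as blocks. Each window runs from 250 bases before to 50 bases after the start site and is from RefSeq on GRCm38.p6, written on the gene's strand. Both strands were searched. For Top2a (chr11:99024140-99024439, minus strand) capitals mark TTTGAA, the letters of the cell cycle homology region, on either strand, and for H2bc11 (chr13:22042948-22043247, plus strand) they mark CCAAT.
Top2a: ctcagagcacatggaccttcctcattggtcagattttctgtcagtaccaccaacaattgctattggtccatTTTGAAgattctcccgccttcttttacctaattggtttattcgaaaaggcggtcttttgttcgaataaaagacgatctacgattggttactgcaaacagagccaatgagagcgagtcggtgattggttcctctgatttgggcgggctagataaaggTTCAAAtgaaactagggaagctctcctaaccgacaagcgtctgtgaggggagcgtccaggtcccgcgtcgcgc
H2bc11: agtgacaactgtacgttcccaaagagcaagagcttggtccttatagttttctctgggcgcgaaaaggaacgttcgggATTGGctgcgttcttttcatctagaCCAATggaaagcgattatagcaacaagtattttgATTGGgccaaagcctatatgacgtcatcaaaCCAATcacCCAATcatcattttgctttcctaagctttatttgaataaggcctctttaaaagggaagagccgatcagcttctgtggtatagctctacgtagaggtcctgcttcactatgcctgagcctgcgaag
The first bases of the TTTGAA matches in Top2a lie at -179 and -23 from the start site. TTTGAA was present in 15 of 17 measured cell division genes with 1 window, in 12% of all 6936 tested genes with 1 window and in 18.5% of all 22862 windows. CCAAT was present in 34 of 40 histone genes and in 13 of 17 cell division genes, against 39.5% of the tested genes and 38.2% of all windows. No motif searched here or below contains another, and matches are a description of these windows.

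RNA of most glucose metabolism genes was lower. Of 18 measured genes of glycolysis and glucose uptake 15 were lower and 0 higher, with a median difference of -1.96. Aldoc, an aldolase, measured 7.15, 7.33, 7.00 and 7.70 in Tpm and 11.91, 11.82, 11.63, 11.85 and 11.72 in Teff and was 22.5-fold lower in Tpm (log2 difference -4.49, SE 0.37, adjusted p = 1.03e-07), with tight values in both groups. Pfkp, the committing kinase of glycolysis, was 8.04-fold lower in Tpm (log2 difference -3.01, SE 0.63, adjusted p = 0.00138), but its Tpm values spread widely over 8.83, 6.93, 10.86 and 10.35, and without Tpm 7 the difference was -2.24. Aldoa (log2 difference -2.73, adjusted p = 1.24e-05) and Pgam1 (log2 difference -2.54, adjusted p = 5.05e-07) were lower. Slc2a1, which encodes the glucose transporter GLUT1, measured 9.45, 9.47, 9.58 and 9.17 in Tpm and 11.58, 11.36, 12.11, 11.61 and 11.97 in Teff and was 4.97-fold lower in Tpm (log2 difference -2.31, SE 0.18, adjusted p = 6.47e-08). The Tpm values of Slc2a1 lay near the naive mean of 9.72 ± 0.21 (SD, n = 5).

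Hypoxia-response genes fell together with glycolysis. Of 28 measured, 21 were lower and 0 higher, with a median difference of -2.37. The largest were Mgarp, a mitochondrial transport protein, and P4ha2, a collagen prolyl hydroxylase subunit. P4ha2 measured 4.35, 5.29, 5.34 and 5.26 in Tpm and 10.08, 9.80, 9.89, 9.95 and 9.96 in Teff and was 29.3-fold lower in Tpm (log2 difference -4.87, SE 0.23, adjusted p = 1.61e-10). Its Tpm values lay at the naive level of 5.04 ± 0.34 (SD, n = 5). Mgarp measured 5.54, 6.43, 7.42 and 5.75 in Tpm and 11.95, 11.58, 11.74, 11.63 and 11.71 in Teff and was 43.3-fold lower in Tpm (log2 difference -5.44, SE 0.48, adjusted p = 2.03e-07). Ndrg1, a stress-response gene, was 18.6-fold lower in Tpm (log2 difference -4.22, SE 0.26, adjusted p = 2.88e-09), Vldlr, a lipoprotein receptor, was 17.2-fold lower in Tpm (log2 difference -4.11, SE 0.24, adjusted p = 1.84e-09), and Stc2, a secreted stanniocalcin, was at least 11.4-fold lower in Tpm (means 4.54 in Tpm and 8.31 in Teff, adjusted p = 1.07e-08).

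The core letters of the hypoxia response element, ACGTG, are shown in capitals in the promoters of P4ha2 (chr11:54100674-54100973, plus strand) and Mgarp (chr3:51396498-51396797, minus strand), the 2 hypoxia genes with the largest differences. In Mgarp the letters are on the opposite strand and read CACGT.
P4ha2: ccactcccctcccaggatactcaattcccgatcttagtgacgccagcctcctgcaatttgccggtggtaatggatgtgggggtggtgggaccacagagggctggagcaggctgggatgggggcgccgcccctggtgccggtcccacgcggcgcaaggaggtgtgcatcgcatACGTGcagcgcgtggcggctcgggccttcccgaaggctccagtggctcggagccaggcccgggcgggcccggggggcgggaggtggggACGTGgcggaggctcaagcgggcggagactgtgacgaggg
Mgarp: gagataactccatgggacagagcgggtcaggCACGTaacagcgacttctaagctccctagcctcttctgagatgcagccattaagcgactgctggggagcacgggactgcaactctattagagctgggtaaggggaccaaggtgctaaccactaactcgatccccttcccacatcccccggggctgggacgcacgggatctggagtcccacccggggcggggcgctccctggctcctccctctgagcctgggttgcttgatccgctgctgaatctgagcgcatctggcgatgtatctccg
ACGTG was present in 14 of 18 measured hypoxia genes with 1 window and in 5 of 11 glycolysis genes, against 26.5% of the tested genes and 19.4% of all windows. In P4ha2 the matches begin 78 bases before and 10 bases after the start site.

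**Figure D3:**
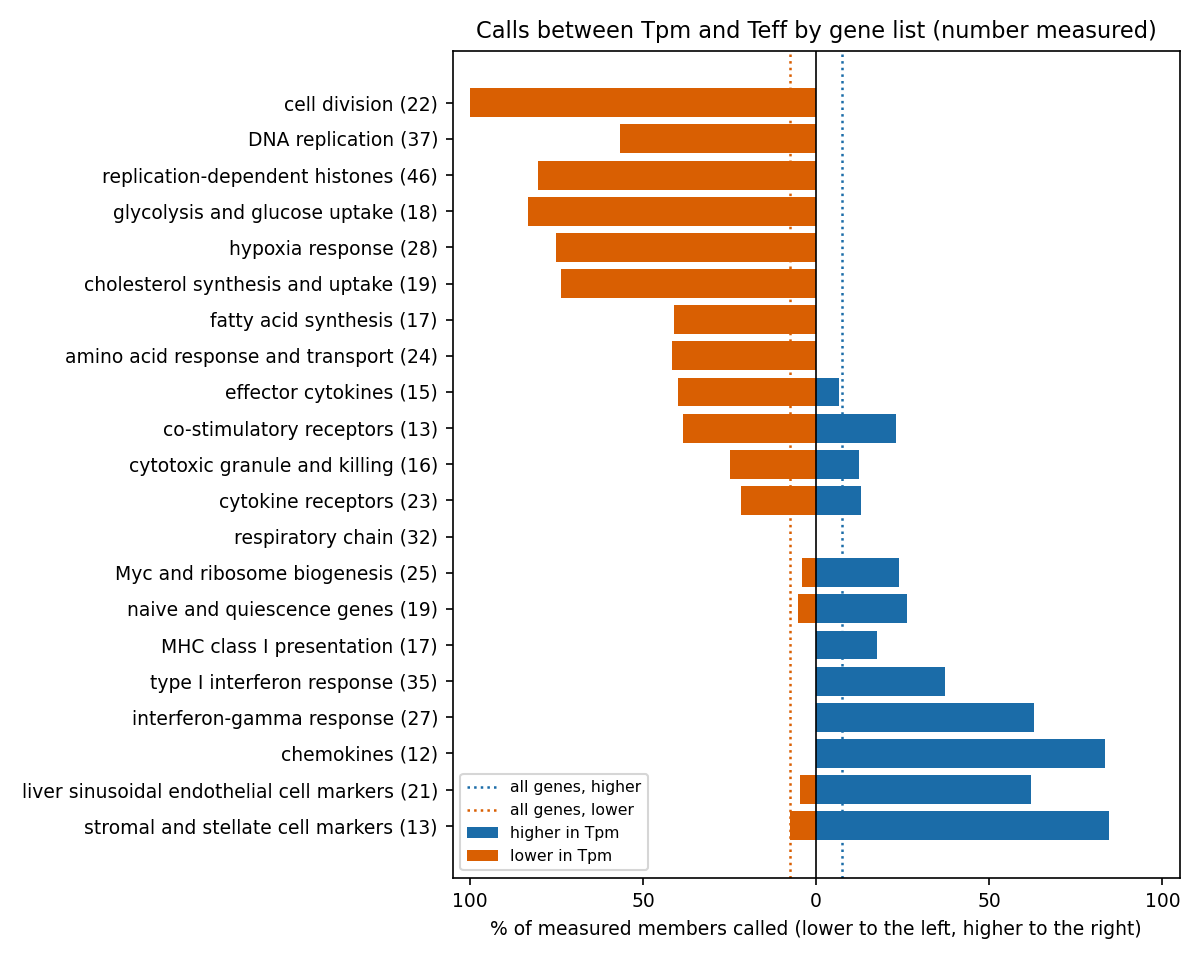
Share of measured members called higher (blue, right) or lower (orange, left) in Tpm than in Teff for 21 of the 49 gene lists, in % on the x axis, with the number measured in brackets. Dotted lines mark the shares over all genes, 7.42% higher and 7.7% lower. Cell division (22 of 22), DNA replication, histone, glycolysis, hypoxia, cholesterol, fatty acid synthesis and amino acid lists extend to the left. Interferon, chemokine and endothelial or stromal lists extend mainly to the right. So does Myc and ribosome biogenesis, with 24% higher and 4% lower, and the respiratory chain has 0% in both directions.

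RNA of lipid synthesis genes was lower at several branches. Of 19 genes of cholesterol synthesis and uptake 14 were lower and 0 higher, with a median difference of -2.08. Fdps, which makes the farnesyl precursor of sterols, measured 8.94, 8.09, 8.39 and 9.44 in Tpm and 12.53, 12.27, 12.40, 12.72 and 12.79 in Teff and was 14.2-fold lower in Tpm (log2 difference -3.83, SE 0.30, adjusted p = 4.65e-08). Tpm values again lay around the naive mean of 8.14 ± 0.28 (SD, n = 5). Cyp51 (log2 difference -3.25, adjusted p = 6.79e-06) and Lss, the enzyme that closes the sterol rings (log2 difference -3.21, adjusted p = 2.76e-08), were lower. The sterol regulatory element, searched as TCACNCCAC, was found in 0 of 13 measured genes of the list with 1 window, against 0.966% of the tested genes, which says only that these letters are not in the windows.

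Scd1, the desaturase that makes monounsaturated fatty acids, had the largest fall of all genes above background in both groups. It measured 5.39, 6.37, 4.79 and 6.07 in Tpm and 11.19, 11.28, 11.23, 11.12 and 11.32 in Teff and was 47.6-fold lower in Tpm (log2 difference -5.57, SE 0.41, adjusted p = 2.74e-08). Its relative Scd2 was 6.17-fold lower in Tpm (log2 difference -2.63, SE 0.25, adjusted p = 5.51e-07), and the fatty acid activating enzymes Acsl3 7.78-fold lower in Tpm (log2 difference -2.96, SE 0.23, adjusted p = 4.98e-08) and Acsl6 at least 9.35-fold lower in Tpm (means 4.24 in Tpm and 8.03 in Teff, adjusted p = 1.92e-10). Acsl3 differed from the rest in that Tpm, not Teff, departed from the naive mean of 8.41 ± 0.35 (SD, n = 5). Of 17 fatty acid synthesis genes 7 were lower and 0 higher, while the synthase itself, Fasn, differed by -0.26 (adjusted p = 0.337), a gene named after its value was seen. Fatty acid oxidation was mostly level, with 1 of 20 higher and 1 lower, Acadl (log2 difference -1.64, adjusted p = 0.00224). Of 4 cholesterol efflux genes limma called 0, with 1 at an unadjusted p under 0.05.

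The amino acid response, a programme that the factor ATF4 runs when amino acids are scarce or demand is high, was lower for 10 of 24 genes and higher for 0, with a median difference of -0.73. Asns, asparagine synthetase, measured 8.92, 8.88, 8.48 and 8.66 in Tpm and 11.39, 11.35, 11.65, 11.40 and 12.00 in Teff and was 7.09-fold lower in Tpm (log2 difference -2.83, SE 0.38, adjusted p = 2.28e-05). Tpm stood far above the naive mean of 4.51 ± 0.14 (SD, n = 5) all the same. Chac1, which degrades glutathione, was 10.1-fold lower in Tpm (log2 difference -3.33, SE 0.24, adjusted p = 2.41e-08), and Slc7a3, a cationic amino acid transporter, was 9.11-fold lower in Tpm (log2 difference -3.19, SE 0.24, adjusted p = 3.14e-08). Teff 17 had the highest Slc7a3 value, 8.59. Without Tpm 14 1 gene of the list was called higher.

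Asns is shown as the member whose promoter has been used in human cells to define an amino acid response element. Capitals mark TGATGNAA, the letters of the ATF4 response element (chr6:7693160-7693459, minus strand).
Asns: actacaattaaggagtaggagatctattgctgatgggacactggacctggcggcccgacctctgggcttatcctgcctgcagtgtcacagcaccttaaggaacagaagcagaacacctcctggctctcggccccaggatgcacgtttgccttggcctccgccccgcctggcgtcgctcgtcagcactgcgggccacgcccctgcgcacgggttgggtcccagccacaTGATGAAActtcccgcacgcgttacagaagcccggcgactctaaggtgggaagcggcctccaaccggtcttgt
The match begins 23 bases before the start site. TGATGNAA was present in 6 of 17 measured amino acid genes with 1 window, against 2.36% of the tested genes and 4.18% of all windows.

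Other growth machinery gave few lower calls at the 2-fold minimum. Of 32 respiratory chain subunits limma called 0 in either direction, with a median difference of -0.32. In limma 10 had an unadjusted p under 0.05, which was not set against the share over all genes. With no minimum difference 7 of the 32 were lower, against 1429 of all 10619 genes. Of 25 genes of Myc and ribosome biogenesis 6 were higher and 1, Myc itself, lower, with a median difference of 0.56. The groups did not overlap in 4 of the 25, against 27.4% of all genes. The list mean was -0.23 on Tpm 14, within the Teff range of -0.37 to -0.02, and 0.27 to 0.57 on the other Tpm arrays. Ppan, a ribosome assembly factor, was 2.74-fold higher in Tpm (log2 difference 1.45, SE 0.24, adjusted p = 0.00016), and Rrp12 was 2.21-fold higher in Tpm (log2 difference 1.15, SE 0.19, adjusted p = 0.000132). The 6 higher became 3 without Tpm 4 and 3 with no background correction, and Myc lost its call without Tpm 7. Of 21 proteasome genes Psmb10, an immunoproteasome subunit, was the only 1 called (log2 difference 1.37, adjusted p = 3.57e-06), and without Tpm 14, Tpm 15 or Teff 10 another was lower. Of 23 genes of endoplasmic reticulum chaperones and the unfolded protein response 1 was higher and 1 lower. Neither was called without Tpm 7, 2 were higher without Tpm 14, 2 were lower without Teff 8 or Teff 10 and 3 were lower without Tpm 15.

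Genes that interferon-gamma induces were higher in Tpm. Of 27 measured, 17 were higher and 0 lower, with a median difference of 1.22. Ubd, a ubiquitin-like modifier, measured 9.38, 10.39, 9.06 and 10.05 in Tpm. It was at least 31.1-fold higher in Tpm (means 9.72 in Tpm and 4.53 in Teff, adjusted p = 1.67e-08). Calhm6 was higher (log2 difference 4.52, adjusted p = 3.48e-10), and Serpina3f, a protease inhibitor, was 25.3-fold higher in Tpm (log2 difference 4.66, SE 0.22, adjusted p = 1.29e-10). The list mean lay between 0.70 and 1.08 on Tpm, between -0.97 and -0.60 on Teff and between -0.98 and -0.62 on naive arrays. Several of these genes are also induced in endothelial cells, and the part of such cells was not tested.

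Type I interferon genes, the antiviral set, were higher for 13 of 35 and lower for 0, with a median difference of 0.78. Ifit3, which binds viral RNA complexes, measured 7.94, 8.35, 7.04 and 8.55 in Tpm and 4.38, 4.58, 4.37, 4.67 and 4.54 in Teff. It was at least 9.26-fold higher in Tpm (means 7.97 in Tpm and 4.51 in Teff, adjusted p = 0.0001). Oasl2 was at least 5.69-fold higher in Tpm (means 7.27 in Tpm and 4.31 in Teff, adjusted p = 1.9e-05), and Rsad2, the antiviral enzyme viperin, was at least 4.03-fold higher in Tpm (means 6.77 in Tpm and 4.43 in Teff, adjusted p = 0.000749). The naive mean of Ifit3 was 9.50 ± 1.52 (SD, n = 5), with naive 13 lowest, and the Tpm mean lay under it. The list mean was between 0.16 and 1.33 on naive, 0.34 and 0.71 on Tpm and -0.50 and -0.36 on Teff arrays. The count of higher genes was 6 with no background correction, and without Tpm 14, Tpm 15 or Teff 10 there was 1 lower gene.

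The largest rise among genes above background in both groups was Ifi213, a member of the p200 family of interferon-inducible DNA-binding proteins. It measured 11.07, 11.50, 10.65 and 11.03 in Tpm and 5.39, 5.66, 5.28, 5.43 and 5.11 in Teff and was 51.5-fold higher in Tpm (log2 difference 5.69, SE 0.19, adjusted p = 1.99e-12). The naive mean was 11.77 ± 0.33 (SD, n = 5), so Teff held the level that stood apart. Ifi214 (log2 difference 3.70, adjusted p = 8.08e-09) and Mndal (log2 difference 2.53, adjusted p = 3.72e-06) were higher as well, 3 of 4 measured p200 genes. These genes are close paralogs in a cluster on chromosome 1, and probes may read more than 1 of them. Of 17 genes of MHC class I presentation 3 were higher and 0 lower, led by Nlrc5, their transactivator (log2 difference 1.40, adjusted p = 0.000997), and Tap2, a peptide transporter subunit (log2 difference 1.33, adjusted p = 4.61e-05).

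Promoters of 2 interferon genes are shown with the letters of the interferon-stimulated response element, searched as GAAA, any 2 bases and GAAA, in capitals on either strand: Ifi213 as the largest rise (chr1:173599223-173599522, minus strand) and Ifit3 for its pair of matches (chr19:34583279-34583578, plus strand), which read TTTCACTTTC and TTTCAGTTTC.
Ifi213: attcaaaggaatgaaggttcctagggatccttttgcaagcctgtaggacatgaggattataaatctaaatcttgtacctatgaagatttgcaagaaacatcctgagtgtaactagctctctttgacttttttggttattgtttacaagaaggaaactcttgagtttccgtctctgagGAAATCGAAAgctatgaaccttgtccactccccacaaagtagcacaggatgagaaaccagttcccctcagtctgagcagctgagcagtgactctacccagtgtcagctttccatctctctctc
Ifit3: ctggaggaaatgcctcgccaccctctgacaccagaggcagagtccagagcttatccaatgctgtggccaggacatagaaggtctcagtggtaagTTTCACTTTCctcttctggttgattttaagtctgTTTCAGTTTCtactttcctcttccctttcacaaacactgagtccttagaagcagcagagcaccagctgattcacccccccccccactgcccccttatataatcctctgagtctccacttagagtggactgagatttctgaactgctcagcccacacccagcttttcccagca
The first bases of the matches lie at -73 in Ifi213 and at -156 and -122 in Ifit3. The element was present in 11 of 15 measured interferon-gamma genes with 1 window and in 9 of 16 type I genes, against 3.23% of the tested genes and 3.58% of all windows. Among those called higher it was present in 7 of 11 interferon-gamma genes and in 2 of 6 type I genes. The windows of Cxcl9, Ubd and Oasl2 held 0 matches.

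Genes of endothelium and stroma were higher in Tpm. Of 21 measured markers of liver sinusoidal endothelium 13 were higher and 1 lower, with a median difference of 1.63, and of 13 stromal markers 11 were higher and 1 lower, with a median of 3.15. With no background correction 7 stromal markers were higher. Angpt2, an angiopoietin secreted by endothelium, measured 10.31, 10.61, 9.04 and 10.41 in Tpm. It was at least 40.2-fold higher in Tpm (means 10.09 in Tpm and 4.36 in Teff, adjusted p = 3.84e-08). Robo4, an endothelial guidance receptor, was at least 13.0-fold higher in Tpm (means 8.47 in Tpm and 4.37 in Teff, adjusted p = 2.75e-09), and Plvap, a diaphragm protein of fenestrated endothelium, was at least 9.86-fold higher in Tpm (means 8.06 in Tpm and 4.43 in Teff, adjusted p = 5.39e-06). Igfbp7, a secreted protein of vessels, was 13.8-fold higher in Tpm (log2 difference 3.79, SE 0.66, adjusted p = 0.000263), and Teff also stood above the naive mean of 4.68 ± 0.25 (SD, n = 5) for it. Of the defining markers, Cdh5 measured 6.48, 7.06, 6.07 and 7.17, Lyve1 6.64, 7.96, 6.60 and 7.52 and Stab2 5.29, 6.29, 4.91 and 6.21 in Tpm, and none of the 3 was above background on a Teff array. Stab2 was not called without Tpm 7 or Tpm 15 (at least 1.64-fold and 1.66-fold). Clec4g differed by -0.05 (adjusted p = 0.894).

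The stromal list was led by Bgn, a matrix proteoglycan, which was at least 23.7-fold higher in Tpm (means 9.33 in Tpm and 4.38 in Teff, adjusted p = 2.15e-07), by Col4a1, a basement membrane collagen, which was at least 17.7-fold higher in Tpm (means 8.91 in Tpm and 4.37 in Teff, adjusted p = 6.46e-07), and by Dcn, which was at least 14.8-fold higher in Tpm (means 8.65 in Tpm and 4.39 in Teff, adjusted p = 1.48e-07). Acta2, the smooth muscle actin, was at least 12.9-fold higher in Tpm (means 8.45 in Tpm and 4.32 in Teff, adjusted p = 6.29e-09). The exceptions were Stab1, a scavenger receptor, which was 3.49-fold lower in Tpm (log2 difference -1.80, SE 0.27, adjusted p = 5.72e-05), and Vim, an intermediate filament that activated lymphocytes also express, which was 10.7-fold lower in Tpm (log2 difference -3.41, SE 0.46, adjusted p = 2.01e-05). The mean over the endothelial list was 0.80 to 1.51 on Tpm, -0.94 to -0.83 on Teff and -1.22 to -0.98 on naive arrays. The stromal mean was 0.85 to 1.91 on Tpm and -1.15 to -0.99 on Teff. Tpm 15 was highest and Tpm 14 lowest on both lists. LSEC were the coculture partner of Tpm, and the part of their RNA in the other genes higher in Tpm was not tested.

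The largest differences also included Ccn2, a matrix-associated growth regulator (log2 difference 4.70, adjusted p = 7.28e-08), and St6galnac3, a sialyltransferase (log2 difference 4.18, adjusted p = 2.08e-08). App, the amyloid precursor (log2 difference 4.12, adjusted p = 3.68e-07), and Slpi, a protease inhibitor (log2 difference 4.87, adjusted p = 3.75e-05), were among them too. Naive means were 8.17 ± 0.22 for App and 8.83 ± 1.64 for Slpi (SD, n = 5). Both genes were called lower in Teff than in naive cells. In Tpm, App was called higher than in naive cells (log2 difference 1.12) and Slpi was not called. Angptl7 was at least 15.4-fold higher in Tpm (means 8.71 in Tpm and 4.27 in Teff, adjusted p = 1.17e-05), and at least 26.4-fold without Tpm 14. Tpm 14 was lowest for Angptl7 and Slpi. Serpinh1, the collagen chaperone, was at least 16.9-fold higher in Tpm (means 8.84 in Tpm and 4.31 in Teff, adjusted p = 3.41e-08), and Cyp1b1, a cytochrome of vessel walls, was at least 11.5-fold higher in Tpm (means 8.29 in Tpm and 4.34 in Teff, adjusted p = 8.65e-08).

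Among Tpm and Teff arrays, the macrophage and dendritic cell lists had their highest means on Tpm 14. The macrophage list mean was 2.43 on Tpm 14, -0.13 to 0.03 on the other Tpm arrays and -0.52 to -0.35 on Teff. On naive arrays it ran from -0.13 to 1.60. Lyz1, a lysozyme gene, measured 8.47, 8.43, 13.49 and 8.41 in Tpm and was 37.3-fold higher in Tpm (log2 difference 5.22, SE 0.87, adjusted p = 0.000181), with a difference of 3.96 without Tpm 14. Lyz2, its near-identical paralog, was at least 9.17-fold higher in Tpm (means 7.96 in Tpm and 4.42 in Teff, adjusted p = 0.00271), and the bound became 4.63-fold without Tpm 14 and 14.2-fold without Tpm 15. Slc40a1, the iron exporter of macrophages, was at least 10.2-fold higher in Tpm (means 8.11 in Tpm and 4.30 in Teff, adjusted p = 0.00546), and at least 4.57-fold without Tpm 14. The naive means were 7.90 ± 1.00 for Lyz1 and 8.89 ± 1.79 for Slc40a1 (SD, n = 5). Against naive cells both genes were called lower in Teff and neither was called in Tpm. Of 11 macrophage markers 1 was higher, Lyz2, with 2 without Tpm 7, and 0 were lower. C1qb, a complement subunit of macrophages, was above background on Tpm 14 and on none of the other 8 arrays.

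The probes used for the MHC class II genes H2-Aa and H2-Ab1 moved in opposite directions. H2-Aa measured 7.39, 7.88, 10.23 and 5.73 in Tpm and 5.18, 5.12, 5.15, 4.54 and 4.47 in Teff and was 7.55-fold higher in Tpm (log2 difference 2.92, SE 0.81, adjusted p = 0.0105), with a difference of 2.11 without Tpm 14 and 3.61 without Tpm 15. H2-Ab1, which encodes the partner chain, measured 7.34, 7.16, 11.60 and 7.55 in Tpm and 11.28, 10.75, 10.61, 11.40 and 11.22 in Teff and was 6.22-fold lower in Tpm (log2 difference -2.64, SE 0.80, adjusted p = 0.0186), with a difference of -3.70 without Tpm 14 and no call without Tpm 4, Tpm 7 or Tpm 15 (adjusted p = 0.0694, 0.0705 and 0.0592). By the probes used, Teff was called higher than naive cells for H2-Ab1 (naive mean 8.67 ± 1.06) and lower for H2-Aa (8.65 ± 1.52, SD, n = 5). Tpm was not called against naive cells for either gene. H2-Ab1 had 3 kept probes and H2-Aa 1, and values are given for the brightest only. Of 11 dendritic cell markers 2 were higher, H2-Aa and Cd86 (log2 difference 1.81, adjusted p = 0.00017), and 4 lower, and the list mean was 1.27 on Tpm 14, -0.60 to -0.48 on the other Tpm arrays and -0.08 to 0.34 on Teff. With no background correction 0 of them were higher. On naive arrays the list mean ran from -0.87 to 0.78.

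Markers of other cells gave few calls. Of 4 B-cell, 5 erythroid and 5 neutrophil and mast cell markers limma called 0, with 1, 0 and 0 at an unadjusted p under 0.05. Kit, a stem cell factor receptor in the last list, was high in both groups, 10.09, 10.44, 12.00 and 10.52 in Tpm and 11.25, 11.50, 10.89, 11.53 and 11.96 in Teff, against a naive mean of 5.28 ± 0.72 (SD, n = 5). Of 2 hepatocyte markers Trf, transferrin, was higher (log2 difference 2.10, adjusted p = 0.0246), and its call was lost without Tpm 4, Tpm 15 or Teff 10 (adjusted p = 0.0543, 0.105 and 0.0527). Of 5 markers of NK, CD4 and regulatory T cells 2 were higher, Eomes and Klrb1c, the latter at least 1.9-fold higher in Tpm (means 5.69 in Tpm and 4.29 in Teff, adjusted p = 0.00113).

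**Figure D4:**
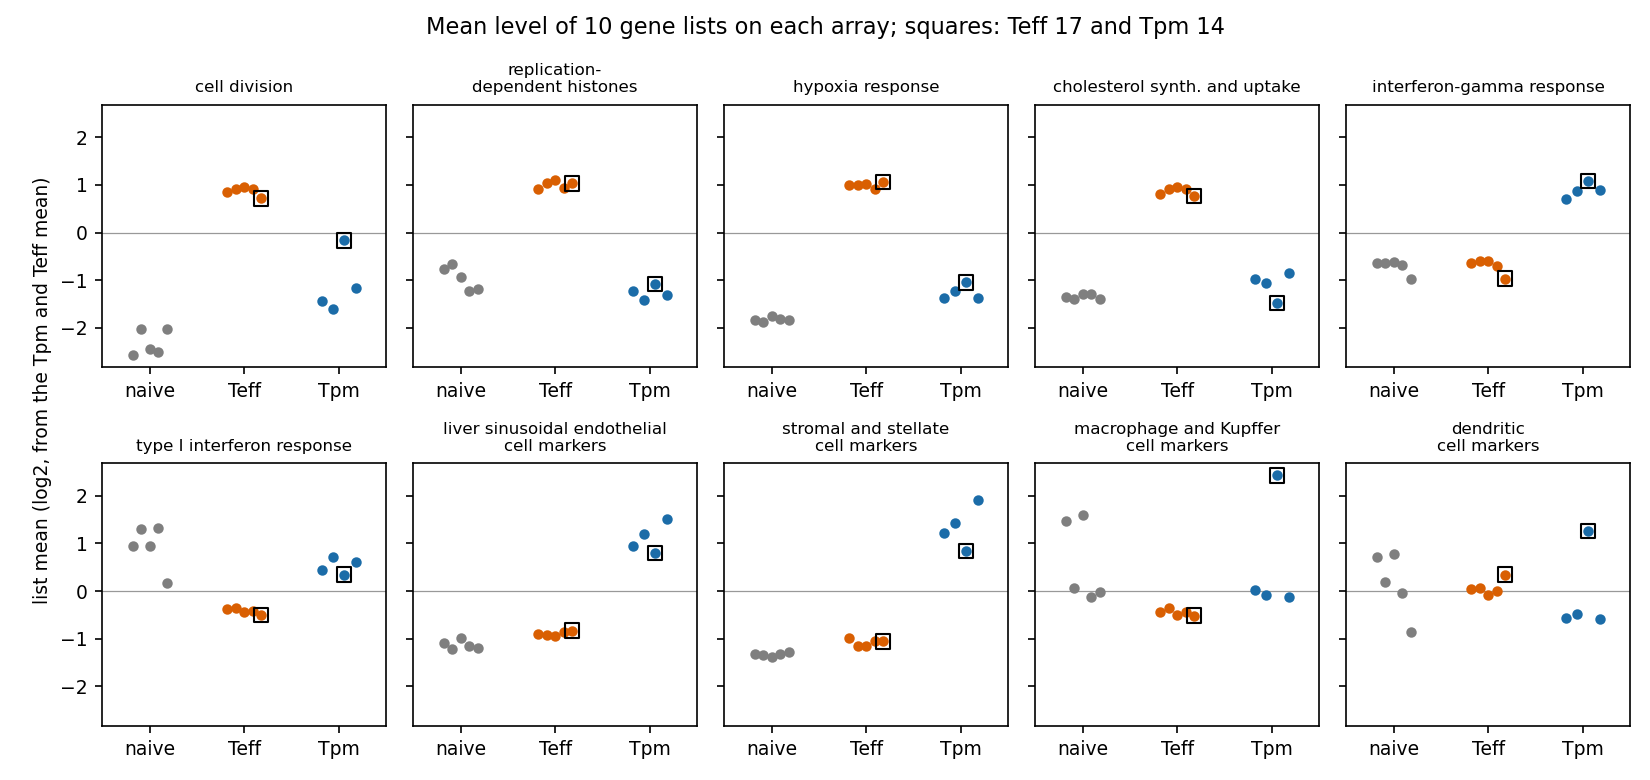
Mean level of 10 gene lists on each array (points), each gene set relative to its mean over the 9 Tpm and Teff arrays (y axis, log2), for naive cells (grey, n = 5), Teff (orange, n = 5) and Tpm (blue, n = 4). Squares mark Teff 17 and Tpm 14. Tpm 14 has the highest macrophage, dendritic cell and cell division means among Tpm arrays.

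Several genes known from other tissues were lower in Tpm. Tg, the thyroid prohormone thyroglobulin, measured 6.06, 5.23, 6.69 and 5.62 in Tpm and 10.93, 10.44, 10.49, 10.84 and 11.28 in Teff and was 29.8-fold lower in Tpm (log2 difference -4.90, SE 0.28, adjusted p = 1.79e-09). Muc2, the intestinal mucin, was at least 11.2-fold lower in Tpm (means 4.34 in Tpm and 8.30 in Teff, adjusted p = 7.28e-13), and Pkp2, a desmosome protein, was at least 12.3-fold lower in Tpm (means 4.54 in Tpm and 8.43 in Teff, adjusted p = 1.26e-10). Stc1, a stanniocalcin, was at least 5.1-fold lower in Tpm (means 4.38 in Tpm and 7.16 in Teff, adjusted p = 1.09e-10), and Smtnl2, a smoothelin-like protein, was at least 5.01-fold lower in Tpm (means 4.28 in Tpm and 7.13 in Teff, adjusted p = 7.45e-09). Ltb4r1, the leukotriene B4 receptor that guides effector T cells, was at least 3.73-fold lower in Tpm (means 4.32 in Tpm and 6.71 in Teff, adjusted p = 1.51e-08). The naive means of these 6 genes ran from 4.22 to 4.42, and of the 6 only Tg was called against naive cells in Tpm. Mt1, a metal-binding metallothionein, was among the brightest Teff genes with 14.58, 14.39, 14.70, 14.58 and 14.74, measured 9.20, 10.06, 11.38 and 10.02 in Tpm and was 21.6-fold lower in Tpm (log2 difference -4.43, SE 0.57, adjusted p = 1.24e-05).

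Set against naive cells, Tpm had 889 higher genes (8.37%) and 509 lower (4.79%), and Teff had 1414 higher (13.3%) and 1116 lower (10.5%). The 2 comparisons share the 5 naive arrays, so their values are given side by side and not as evidence for each other. Il2ra was 1.18 from naive in Tpm and 4.91 in Teff (adjusted p = 0.000196 and 3.18e-12), Tnfrsf4 0.74 from naive in Tpm and 5.25 in Teff (adjusted p = 0.102 and 4.34e-10) and Aldoc 2.60 from naive in Tpm and 7.09 in Teff (adjusted p = 5.36e-05 and 6.83e-11). Klf2 was -2.81 from naive in Tpm and -5.64 in Teff (adjusted p = 6.94e-05 and 3.1e-09), Itgae 0.73 from naive in Tpm and -3.29 in Teff (adjusted p = 0.417 and 9.1e-05) and Ifi213 -0.71 from naive in Tpm and -6.39 in Teff (adjusted p = 0.0113 and 1.6e-13). Kit was 5.49 from naive in Tpm and 6.15 in Teff (adjusted p = 7.31e-06 and 2.78e-07), Lag3 5.81 from naive in Tpm and 6.73 in Teff (adjusted p = 9.67e-06 and 2.46e-07) and Xcl1 5.80 from naive in Tpm and 4.36 in Teff (adjusted p = 1.6e-08 and 4.43e-08). Thus Kit, Lag3 and Xcl1 stood far above naive in both groups, Tnfrsf4 in Teff, and Itgae and Ifi213 were below naive in Teff.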

How the data were processed

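RNA of 17 samples was measured on 1 Illumina mouse array each, and 9 of them form the comparison. Per the labels' protocols, extraction used QIAzol with the miRNeasy kit, and the labelled product was biotinylated cRNA. The deposited non-normalized table holds linear signal intensities, with neither detection p-values nor control probes. The authors' processed table keeps the probe order of each array (Spearman 1) and has the same sorted values on all arrays (column median 97.8), which is linear quantile-normalized intensity. It served as an alternative. No label names the scanner or its software.

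Each array's background mean was the mode of its signals and its SD came from signals below the mode. Signals were corrected with the normexp model, given an offset of 16, then quantile normalized across the 17 arrays and log2 transformed. Differences on this scale understate the change of dim genes. Probes above background (mode plus 2.33 SD) on at least 3 arrays were kept. The platform annotation gave 1 symbol to 34885 probes, several to 18 and none to 10378. Of 20002 kept probes 16818 had 1 symbol, and each gene was represented by its brightest probe, which gave 10619 genes. For called genes, 894 of 1013 other probes had the same sign and 3 were called in the opposite direction.

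The tests were those of limma 3.58.1 under R 4.3.3, with 1 coefficient per group over 17 arrays, two-sided, and Benjamini-Hochberg adjustment over 10619 genes. SE is that of the fit, with n = 4 Tpm and n = 5 Teff, and pools the spread within every group, memory included. Memory 5 had a mean signal of 96.7 and 20.1% of probes above background. Where the probe used was above background on no array of the dimmer group, a fold is given as at least N-fold, from the brighter group's mean and, per dim array, the higher of the gene's value and the lowest value above background. The steps were tested on simulated data. The number of arrays limits the precision.

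The 49 gene lists and the comparison were chosen with earlier results of these data known. The genes named are, in each direction, the 12 called genes that differed most among those with a probe above background on at least 1 array of each group and the 8 with the largest bound, then up to 4 called per list, and a set of T-cell genes. Markers named in the plan were added, and C1qb, Fasn, Stab1, Tsc22d3 and Vim were chosen after their values were seen. Promoter windows are those of RefSeq, of which 6936 tested genes had exactly 1. Alternatives changed the background, normalization, filter, probes, samples in the fit, weights and threshold. A slide or position block and detection p-values could not be used because the tables hold neither.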

Additional observations from a re-analysis of the deposited data

Results flagged for a closer look

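A single array lay far from the others of its group in 28 of the 334 sets of Tpm or Teff values that were checked (160 genes and 7 list means in 2 groups), by the gap of the highest or lowest array to its neighbour relative to the group's range. Chance flags about 5% of such groups when they are independent. These sets share their arrays, and C1qb was added after its value was seen, so the count cannot be measured against that share. Values are log2 levels. What sets these arrays apart was not tested.

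Teff 17, 1 of the 2 arrays with the male pattern in the comparison, was the distant array for 12 genes. It was low for Itgae at 6.33, Klf2 at 6.13, Cxcr3 at 5.75, Egr2 at 6.01, Egr3 at 7.58, Nlrc5 at 7.85 and Ppan at 8.60, all genes called higher in Tpm, so that the array lay farther from Tpm than the other Teff arrays did. It was high for Stc2 at 9.44, Slc7a3 at 8.59, H2bc11 at 10.82 and Ccr6 at 7.16, all called lower in Tpm, and for Slc40a1 at 4.60, which was above background on no Teff array.

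Tpm 14, the other array of the comparison with the male pattern, was distant for 7 genes and 2 lists. It was high for the macrophage list mean at 2.43, the dendritic cell list mean at 1.27, Lyz1 at 13.49, C1qb at 9.52, H2-Ab1 at 11.60 and Egr2 at 9.74, and low for Dcn at 7.71, Icam2 at 8.18 and Klrb1c at 4.85. For Egr2 the 4 Tpm arrays lay close together.

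The other distant values were spread over 4 arrays. Tpm 4 was high for Ccr6 at 5.30 and low for P4ha2 at 4.35, and Tpm 7 was low for H2bc21 at 5.06. Teff 6 was high for Themis at 10.29, Nt5e at 7.95 and Angptl7 at 4.43, and Teff 10 was high for Mcm10 at 10.63. The Angptl7 probe was above background on no Teff array.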

How the results depend on the processing

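The 788 higher and 818 lower genes became 508 and 561 with an offset of 50, 352 and 443 with no background correction, and 1676 and 1429 with no minimum difference. The authors' processed table, which is the same operation as no background correction, also gave 352 higher and 443 lower. Leaving out single arrays gave 715 to 910 higher and 768 to 901 lower genes, where leaving out naive or memory arrays was chosen after seeing the data. Scaling to array medians shifted the median gene to 0.14 and gave 937 higher and 833 lower. Of 4795 values of the 160 genes named, under these and the other alternatives, 0 reversed, 78 lost their call, 9 gained one and 4708 kept their side of the threshold. The 19 called genes that lost it with no background correction included Eomes, Myc, Lta, Havcr2, Rsad2 and H2-Aa, and that setting by construction keeps the background in every level and so compresses differences of dim genes. An adjusted p under 0.01 removed Actn1, H2-Aa, H2-Ab1, Trf and Xcl1. A background taken from control probes, a filter on detection p-values and a block for slide or position were not run because the tables hold none of these. No paired analysis was run because no title links arrays of different groups. Each array has its own sample number, so the numbers cannot show whether arrays are matched. Naive 13, Tpm 14 and Teff 17 had the male pattern of Xist and Y-linked genes. The other arrays of these groups had the female one. Whether the arrays with the male pattern form a matched set was not tested. Signal near background limits dim genes: folds are given as bounds where the probe was above background on no array of a group, and a fold against a group with few such arrays depends on the background correction.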
